A study of Mus musculus with 12 samples.

Results

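Granins are acidic proteins that condense with hormones in the trans-Golgi network and form the matrix of dense-core secretory granules, the organelles in which beta cells store insulin. Chromogranins A and B, secretogranins II and III and VGF belong to this family, and prohormone convertases cut several of them into secreted peptides. IA-2, the product of Ptprn, and its paralog phogrin (IA-2 beta), the product of Ptprn2, are receptor-type tyrosine phosphatase relatives without classical phosphatase activity that span the granule membrane, and both are autoantigens in type 1 diabetes. RESP18 is a luminal protein of the secretory pathway related to the luminal part of IA-2.

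The 8 genes described here are the 5 granin genes Chga, Chgb, Scg2, Scg3 and Vgf, the paralogs Ptprn and Ptprn2, and Resp18. They were chosen by symbol from the 24421 genes counted, and all 8 were among the 13102 genes with enough reads to be tested. Their messages were measured by bulk RNA sequencing in Min6 cells, an insulin-secreting mouse beta-cell line labelled as wild type. In the sh-Il22ra1 group, 6 libraries came from cells infected for 48 h with an adenovirus carrying a short hairpin against Il22ra1, a subunit of the interleukin-22 receptor. In the sh-ctrl group, 6 libraries came from cells infected for the same time with a control adenovirus, whose sample titles carry GFP. Both groups also received 0.3 mM PA for 24 h, which is taken here as palmitate, a saturated fatty acid used to load beta cells with lipid, so that no library shows the cells without virus or fatty acid. The comparison asks how the messages of granule proteins differ with the hairpin against Il22ra1 under this load.

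Reads in genes numbered 14408576 to 15595603 in sh-Il22ra1 libraries and 13108494 to 15887448 in sh-ctrl libraries. Il22ra1 had 1 to 4 reads per library in the sh-Il22ra1 group (15 in all) and 7 to 20 in the sh-ctrl group (74 in all), so the targeted gene was lower with the hairpin but close to the detection limit in both groups. Cyb5r3 was the gene with the smallest p of the whole comparison, with 82.1 ± 5.41 counts per 1e+06 gene reads (CPM) in sh-Il22ra1 and 578 ± 43.1 CPM in sh-ctrl (SD, n = 6 each). Insulin messages were abundant in every library, at 4.26% to 4.91% of gene reads for Ins1 and Ins2 together in sh-Il22ra1 and 4.15% to 6.74% in sh-ctrl, as fits the labelled cell type. Of 6 acinar markers 3 had no read in any library and the summed level was at most 1.03 CPM, while the alpha-cell hormone Gcg reached 147 ± 5.69 CPM in sh-Il22ra1 and 267 ± 18.1 CPM in sh-ctrl. Among further markers of other cell types, Krt7 (ductal, 219.98 CPM in sh-Il22ra1 and 170.1 CPM in sh-ctrl) was higher, with a log2 fold change of 0.37. Muc1, also ductal, was lower, at -0.75, at low levels (1.11 CPM in sh-Il22ra1 and 1.88 CPM in sh-ctrl). Cd68 (macrophage, 6.17 CPM in sh-Il22ra1 and 22.1 CPM in sh-ctrl) was lower as well, with a log2 fold change of -1.84. Fibroblast collagens were also lower, at low levels. Col1a1 had -1.69 (0.821 CPM in sh-Il22ra1, 2.68 CPM in sh-ctrl) and Col1a2 had -1.51 (0.451 and 1.34 CPM in that order). The delta-cell markers Rbp4 (8.53 and 13.6 CPM) and Sst (5.67 and 8.75 CPM) had -0.67 and -0.62. The neuron marker Tubb3 (134 and 187 CPM) had -0.48. All other tested markers of other cell types did not pass the test, and the rest had too few reads to test. The part of these markers in the differences below was not tested. The sh-ctrl libraries 1 and 4 stood apart from the other 4 sh-ctrl libraries on the second principal component. Fold changes of members that turn on them are given with and without them, whereas most ratios are given with all libraries only. Reads without an alignment made up 8.71% to 11.8% of sh-Il22ra1 files and 12.8% to 17.3% of sh-ctrl files, and their part in the differences below was not tested. Nothing in the labels says that the libraries came from separate experiments, so the p-values measure the spread between these samples. In bulk RNA, fewer cells of a type and less RNA per cell cannot be told apart.

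Several granin genes are known targets of cyclic AMP signalling through the cyclic AMP response element (CRE), the palindrome TGACGTCA, which the factor CREB binds. The part of this element in the differences between the groups was not tested. The windows from 250 bases before to 50 bases after the RefSeq start are shown for 5 of the genes. They cover the members that differed most between the groups and those set against them below. They are written 5′ to 3′ on the gene's strand from RefSeq, build GRCm38.p6, and capitals mark TGACGTCA or its core TGACG on either strand. The Chga window is chr12:102554691-102554990 (plus strand), the Chgb window chr2:132781392-132781691 (plus strand), the Scg2 window chr1:79439977-79440276 (minus strand), the Ptprn window chr1:75264159-75264458 (minus strand) and the Ptprn2 window chr12:116485470-116485769 (plus strand).
Chga: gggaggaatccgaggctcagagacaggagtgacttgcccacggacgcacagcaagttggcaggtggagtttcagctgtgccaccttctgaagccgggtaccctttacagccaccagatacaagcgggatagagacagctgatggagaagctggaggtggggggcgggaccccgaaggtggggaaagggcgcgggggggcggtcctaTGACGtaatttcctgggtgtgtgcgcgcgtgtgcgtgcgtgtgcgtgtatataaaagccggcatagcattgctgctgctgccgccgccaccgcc
Chgb: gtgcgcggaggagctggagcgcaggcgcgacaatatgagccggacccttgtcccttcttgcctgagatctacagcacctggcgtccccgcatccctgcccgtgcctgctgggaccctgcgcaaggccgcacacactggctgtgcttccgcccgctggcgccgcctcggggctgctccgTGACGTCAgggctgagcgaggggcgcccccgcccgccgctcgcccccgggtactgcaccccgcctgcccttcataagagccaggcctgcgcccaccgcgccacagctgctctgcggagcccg
Scg2: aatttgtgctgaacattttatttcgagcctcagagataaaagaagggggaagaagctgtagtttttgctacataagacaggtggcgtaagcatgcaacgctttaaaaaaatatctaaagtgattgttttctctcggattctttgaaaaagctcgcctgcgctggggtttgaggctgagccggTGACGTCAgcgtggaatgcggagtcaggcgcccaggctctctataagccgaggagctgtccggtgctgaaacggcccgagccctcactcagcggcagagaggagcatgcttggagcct
Ptprn: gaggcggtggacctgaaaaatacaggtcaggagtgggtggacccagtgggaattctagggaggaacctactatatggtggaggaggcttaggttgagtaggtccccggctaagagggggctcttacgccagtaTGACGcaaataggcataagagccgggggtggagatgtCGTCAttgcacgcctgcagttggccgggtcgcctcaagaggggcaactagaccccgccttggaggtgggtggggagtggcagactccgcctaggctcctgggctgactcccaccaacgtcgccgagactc
Ptprn2: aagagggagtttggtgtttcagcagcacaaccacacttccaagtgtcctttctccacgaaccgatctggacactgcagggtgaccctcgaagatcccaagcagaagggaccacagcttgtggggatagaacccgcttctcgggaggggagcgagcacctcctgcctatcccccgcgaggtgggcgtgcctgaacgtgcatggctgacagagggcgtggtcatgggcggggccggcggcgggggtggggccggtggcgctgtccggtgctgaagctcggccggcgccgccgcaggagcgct

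Counting from the start, the full CRE lay at -72 to -65 in the Chgb window and at -68 to -61 in the Scg2 window, and 1.79% of the 32851 windows of this length in the RefSeq table hold it. The Chga window held the core TGACG at -44 to -40, the Scg3 window held it at -30 to -26, and the Ptprn window printed above held it at -117 to -113 and, on the other strand, at -80 to -76. The core, which is also part of the full element, occurs on either strand in 20.8% of all windows. Neither form was found in the windows of Ptprn2 or Resp18, which says only that these letters are absent there. The EGR motif GCGNGGGCG, searched on both strands, was found on the minus strand of the Chgb window at -49 to -41 and occurs in 5.55% of windows. The GC box GGGCGG was found in the windows of Chga, Chgb and Ptprn2 and in a second Ptprn window, against 35.7% of all windows, and the AP-1 motif TGANTCA in no member's window, against 7.81% of all windows. Windows were at hand for 7 of the 8 genes, without Vgf. The GENCODE gene starts differ from these RefSeq starts for some members. For Chgb, Scg2 and Ptprn the annotated gene begins upstream of the start used here. In Chgb it begins before the whole window and in Ptprn before both of its windows. In Scg2 it begins at chr1:79440120, inside the window and upstream of the CRE. By that annotation the full CRE of Chgb and that of Scg2 lie within the gene.

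All 8 genes were expressed in every library, with no fewer than 2804 reads for any of them. To compare genes with one another, mean CPM was divided by the length of a reference transcript, and the values in this paragraph are such levels in CPM per kb, with the SD over 6 libraries. Chga was the highest of the 8, at 2192 ± 90.5 in sh-Il22ra1 and 2705 ± 363 in sh-ctrl. Chgb and Scg2 came next, Chgb at 928 ± 51.0 in sh-Il22ra1 and 879.7 ± 87.1 in sh-ctrl, and Scg2 at 828 ± 46.3 in sh-Il22ra1 and 1071 ± 81.8 in sh-ctrl. Chgb thus stood above Scg2 in sh-Il22ra1 and below it in sh-ctrl. Resp18, a short message, followed at 540.1 ± 18.3 in sh-Il22ra1 and 529 ± 58.0 in sh-ctrl. Ptprn, at 381 ± 13.2 in sh-Il22ra1 and 414 ± 26.5 in sh-ctrl, and Scg3, at 375 ± 37.6 in sh-Il22ra1 and 428 ± 61.9 in sh-ctrl, could not be placed in order beyond their spread in either group. Vgf had 189.7 ± 7.64 in sh-Il22ra1 and 219.9 ± 14.6 in sh-ctrl. Ptprn2 was the lowest, at 129 ± 8.54 in sh-Il22ra1 and 88.4 ± 17.7 in sh-ctrl. The exons of Ptprn2 over all annotated transcripts cover 8602 bases against 3201 in its reference transcript, so its level per length is the least certain of the 8. Together the 8 genes took 1.20% to 1.28% of gene reads in sh-Il22ra1 and 1.30% to 1.53% in sh-ctrl. The 5 granins took 0.987% to 1.07% in sh-Il22ra1 and 1.08% to 1.33% in sh-ctrl. The groups did not overlap in either share of reads, narrowly so for the granins. In CPM scaled by library composition, the sums of the 8 genes did overlap, at 11970 to 12672 CPM in sh-Il22ra1 and 12540 to 16369 CPM in sh-ctrl.

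**Figure D1:**
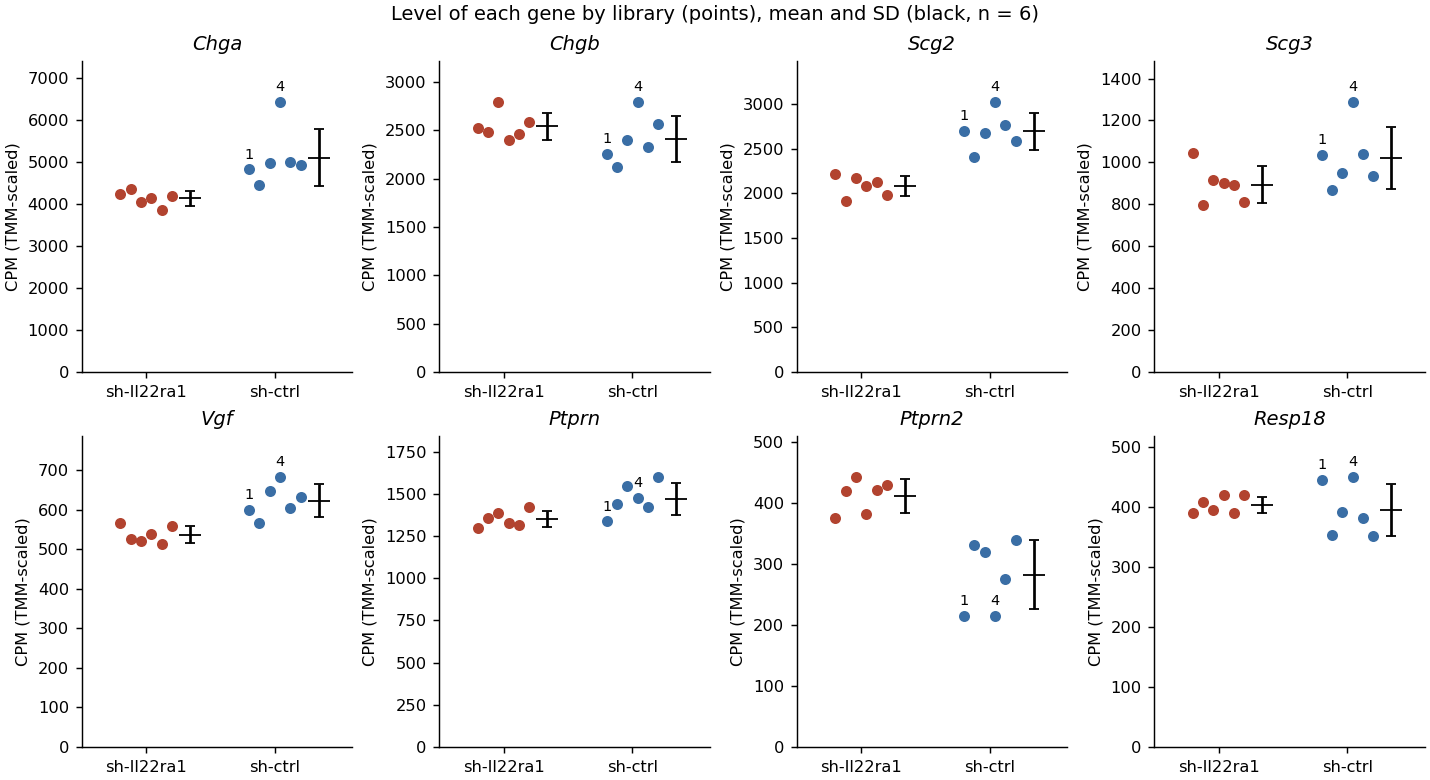
Level of each of the 8 genes in CPM (TMM-scaled, linear axes from 0) in the 6 sh-Il22ra1 libraries (left, red) and the 6 sh-ctrl libraries (right, blue); points are libraries, black marks are mean and SD, and the digits mark sh-ctrl libraries 1 and 4. All sh-Il22ra1 points lie below all sh-ctrl points for Chga and Scg2 and above them for Ptprn2, where sh-ctrl libraries 1 and 4 are the lowest at about 216 CPM each.

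Between the groups the 8 genes did not move one way. Ptprn2 was higher in sh-Il22ra1, Chga, Scg2 and Vgf were lower, and Chgb, Scg3, Ptprn and Resp18 did not pass the test (edgeR's quasi-likelihood test, adjusted p under 0.05 over all tested genes). The comparison called 51.9% of all tested genes, 25.4% higher and 26.5% lower in sh-Il22ra1, so the 4 of 8 called here is close to the background share. That background moved to 4379 higher and 3302 lower genes with length and GC offsets, and to 3781 higher and 4146 lower genes without sh-ctrl libraries 1 and 4, against 3323 and 3472 with all libraries and no offsets. The groups did not overlap for 3 of the 8 genes: sh-Il22ra1 lay above sh-ctrl for 1, against 13.5% of all tested genes, and below it for 2, against 14.6%. The median log2 fold change of the 8 genes was -0.16, and that of all tested genes -0.0043. These CPM values are scaled by library composition, and all fold changes are sh-Il22ra1 over sh-ctrl.

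Chga encodes chromogranin A, a granule matrix protein and the precursor of peptides such as pancreastatin and vasostatin. It lies at chr12:102554969-102565028 on the plus strand (GRCm38, GENCODE M21) and has 8 exons. Its lowest, median and highest levels were 3848, 4151 and 4345 CPM in sh-Il22ra1 libraries, against 4455, 4941 and 6429 CPM in sh-ctrl libraries. Every sh-Il22ra1 library was below every sh-ctrl library, and sh-ctrl library 4 was far above the rest of its group. Chga averaged 4128 ± 170.3 CPM in sh-Il22ra1 and 5094 ± 683 CPM in sh-ctrl (SD, n = 6 each), a log2 fold change of -0.30 (SE 0.0771, edgeR adjusted p = 0.00295). Without sh-ctrl libraries 1 and 4 the change was -0.24 (SE 0.0551, edgeR adjusted p = 0.000414). Chga was the sixth most abundant gene by CPM in sh-Il22ra1 and the fifth in sh-ctrl.

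Scg2 encodes secretogranin II, the precursor of secretoneurin, and lies at chr1:79434669-79440120 on the minus strand with 2 exons. It had 1916, 2106 and 2222 CPM as lowest, median and highest values in sh-Il22ra1 libraries, against 2404, 2688 and 3028 CPM in sh-ctrl libraries. The groups did not overlap, and neither group held a library that stood apart. Scg2 averaged 2082 ± 116 CPM in sh-Il22ra1 and 2693 ± 206 CPM in sh-ctrl (SD, n = 6 each), a log2 fold change of -0.37 (SE 0.0637, edgeR adjusted p = 9.30e-05). It was the most lowered of the 5 granins, and 34.2% of all tested genes had a log2 fold change of larger size.

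Vgf encodes a granin-like neurosecretory protein that is cut into peptides such as TLQP-21; in mice that peptide acts on insulin secretion. The gene lies at chr5:137026392-137033351 on the plus strand with 5 exons, and its reference transcript has the highest GC content of the 8, at 64.1%. Its lowest, median and highest levels were 513, 533 and 567 CPM in sh-Il22ra1 libraries, against 566, 619.9 and 684 CPM in sh-ctrl libraries, and only the top of the first group touched the bottom of the second. Vgf averaged 538 ± 21.7 CPM in sh-Il22ra1 and 623 ± 41.3 CPM in sh-ctrl (SD, n = 6 each), a log2 fold change of -0.21 (SE 0.0565, edgeR adjusted p = 0.00399). With offsets that take up each library's dependence on transcript length and GC content, the change was 0.00080 (SE 0.0430, edgeR adjusted p = 0.990), so that the call did not hold in that fit.

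Chgb encodes chromogranin B, the other major matrix granin, at chr2:132781278-132795079 on the plus strand. It had 2401, 2506 and 2798 CPM in sh-Il22ra1 libraries as lowest, median and highest values, against 2122, 2363 and 2793 CPM in sh-ctrl libraries, and the groups overlapped over most of their range. Chgb averaged 2543 ± 139.9 CPM in sh-Il22ra1 and 2410.4 ± 239 CPM in sh-ctrl (SD, n = 6 each), a log2 fold change of 0.08 (SE 0.0687, edgeR adjusted p = 0.360).

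Scg3 encodes secretogranin III, which binds cholesterol and chromogranin A and so tethers cargo to the granule membrane, at chr9:75643189-75684056 on the minus strand. It had 795, 897 and 1046 CPM in sh-Il22ra1 libraries as lowest, median and highest values, against 868, 994 and 1290.0 CPM in sh-ctrl libraries. The groups overlapped, and sh-ctrl library 4 was again the highest. Scg3 averaged 894 ± 89.6 CPM in sh-Il22ra1 and 1019.8 ± 148 CPM in sh-ctrl (SD, n = 6 each), with a log2 fold change of -0.19 that missed the threshold (SE 0.0873, edgeR adjusted p = 0.0763). Without sh-ctrl libraries 1 and 4 it was -0.10 (edgeR adjusted p = 0.190), whereas with length and GC offsets it was -0.24 (edgeR adjusted p = 0.00550). Leaving out sh-Il22ra1 library 1 gave -0.24 (edgeR adjusted p = 0.0319) and leaving out sh-ctrl library 2 gave -0.23 (edgeR adjusted p = 0.0305).

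Of the paralogs in the granule membrane, Ptprn2 was the one that rose. Phogrin, its product, is made as a precursor that is cut inside the granule. The gene covers chr12:116485720-117276849 on the plus strand, 791 kb, the longest of the 8 by far, and the hairpin of the microRNA Mir153 lies in one of its introns at chr12:117250817-117250885. Ptprn2 had 375, 421 and 444 CPM in sh-Il22ra1 libraries as lowest, median and highest values, against 215, 297 and 340.4 CPM in sh-ctrl libraries. The groups did not overlap, but sh-ctrl libraries 1 and 4, at 216 and 215 CPM, were well below the other 4 sh-ctrl libraries, which ranged from 275 to 340.4 CPM. Ptprn2 averaged 412 ± 27.3 CPM in sh-Il22ra1 and 283 ± 56.8 CPM in sh-ctrl (SD, n = 6 each), a log2 fold change of 0.54 (1.46-fold, SE 0.104, edgeR adjusted p = 0.000284). Without sh-ctrl libraries 1 and 4 the rise was smaller, 0.36 on the log2 scale (1.29-fold, SE 0.0619), with an edgeR adjusted p of 1.06e-05. The genes ranked by CPM place Ptprn2 at 325 in sh-Il22ra1 and at 543 in sh-ctrl.

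Because Ptprn2 is so long, differences were also read by the genomic span of the tested genes, a grouping chosen after its values were seen. Of the 140 tested genes that span more than 500 kb, the median log2 fold change, sh-Il22ra1 over sh-ctrl, was -0.27, so that Ptprn2 went against the median of its span class. In the same genes sh-ctrl libraries 1 and 4 were lower than the other 4 sh-ctrl libraries by a median log2 difference of -0.23, the direction that Ptprn2 also had, with a ratio of 0.681. In the 3245 genes under 10 kb these medians were 0.09 for sh-Il22ra1 over sh-ctrl and 0.17 for sh-ctrl libraries 1 and 4 over the other 4. The part of gene span in the values of sh-ctrl libraries 1 and 4 was not tested.

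**Figure D2:**
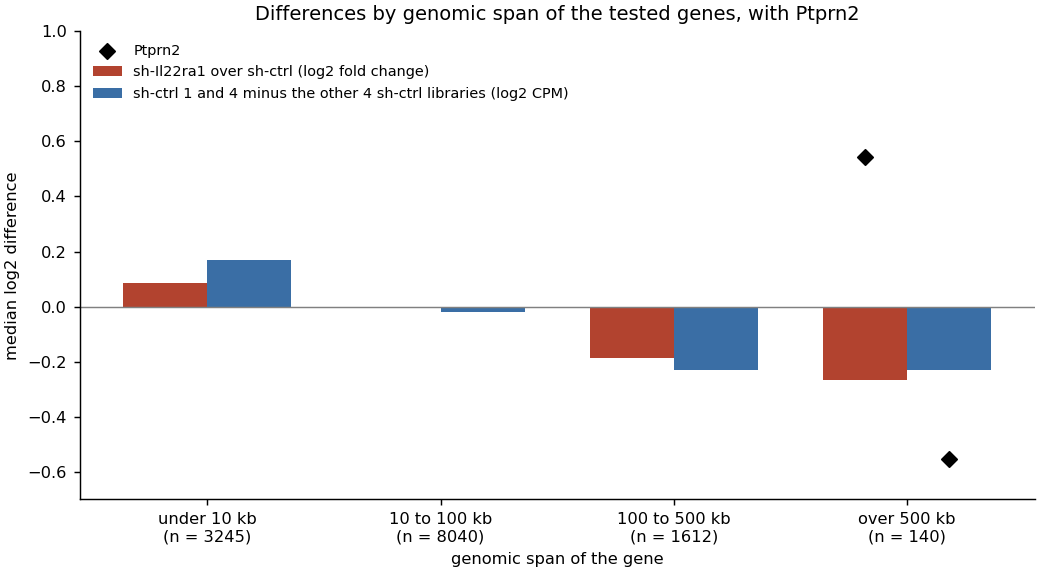
Median log2 difference (y axis) of all tested genes by genomic span (x axis, with the number of genes), for sh-Il22ra1 over sh-ctrl (red bars) and for sh-ctrl libraries 1 and 4 over the other 4 sh-ctrl libraries (blue bars); black diamonds show Ptprn2. In the class over 500 kb the red and blue bars are at -0.27 and -0.23, and Ptprn2 stands at 0.54 above the red bar and below the blue one.

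Ptprn encodes IA-2, whose cytosolic fragment, freed by calpain after exocytosis, is known to raise transcription of granule genes in rodent beta cells. It lies at chr1:75247027-75264502 on the minus strand, and 4.4% of its exon bases also belong to an antisense predicted gene. It had 1299, 1345 and 1425 CPM in sh-Il22ra1 libraries as lowest, median and highest values, against 1338, 1460.3 and 1603 CPM in sh-ctrl libraries, with overlap between the groups. Ptprn averaged 1353 ± 46.8 CPM in sh-Il22ra1 and 1471 ± 94.1 CPM in sh-ctrl (SD, n = 6 each), with a log2 fold change of -0.12 that missed the threshold (SE 0.0567, edgeR adjusted p = 0.0830). The value was near the threshold and depended on the fit. It was -0.17 (edgeR adjusted p = 0.00823) without sh-ctrl libraries 1 and 4, -0.12 (adjusted p = 0.0465) in DESeq2 and 0.06 (edgeR adjusted p = 0.200) with length and GC offsets. Leaving out sh-ctrl library 1 alone gave an edgeR adjusted p of 0.0354, and leaving out sh-ctrl library 4 alone gave 0.0490.

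Resp18 is the neighbour of Ptprn, at chr1:75272199-75278415 on the same strand with 7696 bases between the annotated ends, and shares 3.9% of its exon bases with an antisense predicted gene. It had 390.5, 402 and 419.7 CPM in sh-Il22ra1 libraries as lowest, median and highest values, against 352, 387 and 451 CPM in sh-ctrl libraries. The sh-Il22ra1 values lay within the sh-ctrl range, whose top was formed by libraries 1 and 4 at 445 and 451 CPM. Resp18 averaged 404 ± 13.7 CPM in sh-Il22ra1 and 396 ± 43.3 CPM in sh-ctrl (SD, n = 6 each), a log2 fold change of 0.03 (SE 0.0667, edgeR adjusted p = 0.738). Without sh-ctrl libraries 1 and 4 it was 0.11 (SE 0.0521, edgeR adjusted p = 0.0640). With length and GC offsets it was -0.13 (SE 0.0385, edgeR adjusted p = 0.00805). Without sh-ctrl library 2 alone it was -0.0014 (edgeR adjusted p = 0.988), so the sign of the Resp18 change was not stable.

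**Figure D3:**
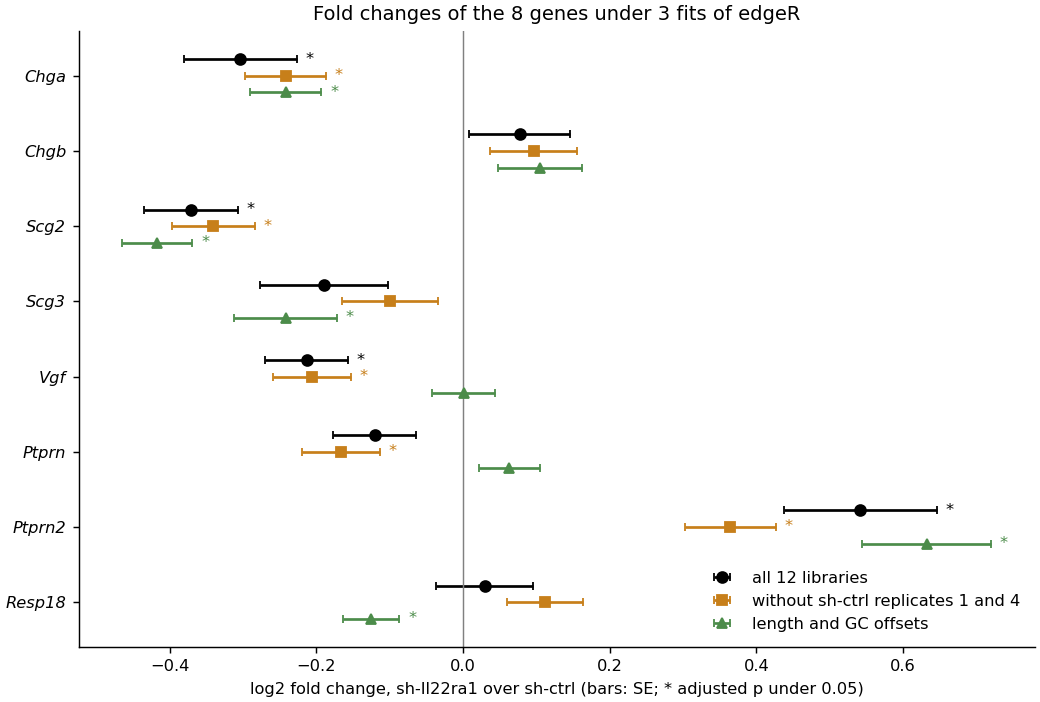
Log2 fold change of the 8 genes, sh-Il22ra1 over sh-ctrl (x axis, bars are SE), from edgeR with all 12 libraries (circles), without sh-ctrl libraries 1 and 4 (squares) and with length and GC offsets (triangles); asterisks mark an adjusted p under 0.05. Chga, Scg2 and Ptprn2 are called the same way in all 3 fits, while the Vgf triangle sits at 0.00080 and those of Ptprn and Resp18 lie on the other side of 0 from their circles.

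Within a library, the ratio of one granule gene to another does not depend on library scaling. The ratios were not tested with the length and GC offsets that moved the fold changes of Vgf, Ptprn and Resp18. For each of the 28 pairs of members, and for each member over Ins1 and over Ins2, the log2 ratios of the 6 sh-Il22ra1 and 6 sh-ctrl libraries were set against each other in a two-sided exact permutation test, and p-values were adjusted over the 44 ratios (Benjamini-Hochberg); the smallest p this design can give is 0.00216. Of the 44 ratios 24 passed, 11 higher and 13 lower in sh-Il22ra1, and of the 28 pairs of members 18 passed. All 7 pairs that hold Ptprn2 passed, each with more Ptprn2 per read of the other gene in sh-Il22ra1. Without sh-ctrl libraries 1 and 4, 7 ratios were higher and 12 lower. The ratios share genes and are not independent of one another or of the fold changes above. Ratios between other genes were not tested, so these counts have no background share to be read against.

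The balance of the chromogranins shifted. Chga reads per Chgb read averaged 1.62 in sh-Il22ra1 and 2.11 in sh-ctrl, a log2 difference of -0.38 with no overlap between the groups (exact permutation p = 0.00216, adjusted p = 0.0106). Chgb reads per Scg2 read averaged 1.22 in sh-Il22ra1 and 0.894 in sh-ctrl, a log2 difference of 0.45 with no overlap (exact permutation p = 0.00216, adjusted p = 0.0106). Chgb and Scg2, which both hold a full CRE in the printed windows, were the pair of granins whose ratio differed most. The part of the CRE in this difference was not tested. Chga reads per Scg2 read averaged 1.98 in sh-Il22ra1 and 1.88 in sh-ctrl, a log2 difference of 0.07 that did not pass (exact permutation p = 0.240, adjusted p = 0.286). Scg2 per Scg3 read was lower, at 2.34 in sh-Il22ra1 and 2.66 in sh-ctrl (log2 difference -0.19, exact permutation p = 0.0108, adjusted p = 0.0238).

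The ratio of the paralogs of the granule membrane shifted, though of these genes only Ptprn2 was called on its own. Ptprn reads per Ptprn2 read averaged 3.29 in sh-Il22ra1 and 5.28 in sh-ctrl, a log2 difference of -0.68 with no overlap (exact permutation p = 0.00216, adjusted p = 0.0106); without sh-ctrl libraries 1 and 4 it was -0.53. The largest shift of any pair was that of Scg2 over Ptprn2, 5.06 in sh-Il22ra1 and 9.67 in sh-ctrl (log2 difference -0.93, exact permutation p = 0.00216, adjusted p = 0.0106). The chromosomal neighbours Ptprn and Resp18 had a ratio of 3.35 in sh-Il22ra1 and 3.73 in sh-ctrl. The log2 difference of -0.15 did not pass (exact permutation p = 0.123, adjusted p = 0.170). It was -0.28 without sh-ctrl libraries 1 and 4 and passed there (adjusted exact permutation p = 0.0140). With length and GC offsets the edgeR log2 fold changes were 0.063 for Ptprn and -0.13 for Resp18, the other way round, and the ratio was not tested in that fit.

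Of the 16 ratios of a member over an insulin gene 6 were higher in sh-Il22ra1. The values in this paragraph include sh-ctrl libraries 1 and 4. Library 4 of sh-ctrl had the highest insulin share, 6.74% of gene reads. Over all 44 ratios, 7 instead of 11 were higher without sh-ctrl libraries 1 and 4. Chgb, Ptprn, Ptprn2 and Resp18 were higher per Ins1 read in sh-Il22ra1, by log2 differences of 0.44, 0.24, 0.92 and 0.39 in that order (adjusted exact permutation p of 0.0136, 0.0437, 0.0106 and 0.0136). Per Ins2 read only Ptprn2, by 0.75, and Resp18, by 0.22, passed (adjusted exact permutation p of 0.0179 and 0.0346). Scg2 per Ins1 read averaged 0.766 in sh-Il22ra1 and 0.774 in sh-ctrl, and Chga per Ins1 read 1.52 in sh-Il22ra1 and 1.46 in sh-ctrl; neither passed (adjusted exact permutation p of 0.873 and 0.259). No member passed as lower per read of either insulin gene, also at an unadjusted p under 0.05. The lowest differences were those of Scg2 per Ins2 read, 0.0486 in sh-Il22ra1 and 0.0551 in sh-ctrl (log2 difference -0.18, adjusted exact permutation p = 0.154), and of Chga per Ins2 read, 0.0964 in sh-Il22ra1 and 0.104 in sh-ctrl (log2 difference -0.11, adjusted exact permutation p = 0.199). Ins1 itself was lower in sh-Il22ra1, by a log2 fold change of -0.36 (edgeR adjusted p = 0.00153), and Ins2 had -0.21 (edgeR adjusted p = 0.123).

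**Figure D4:**
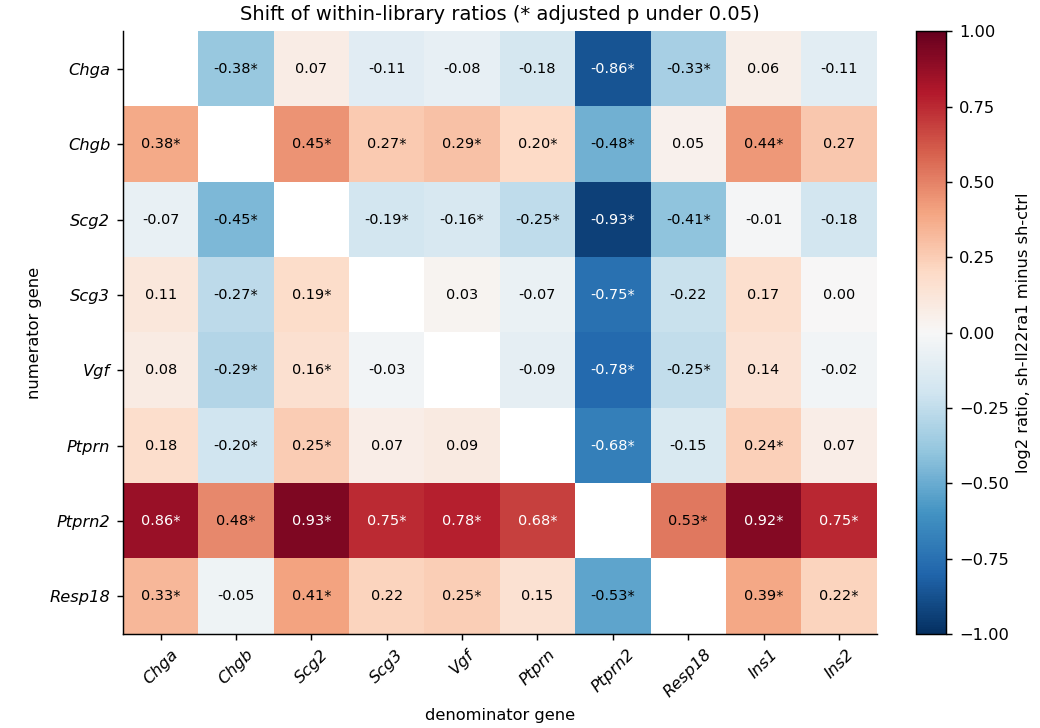
Difference of the mean log2 within-library ratio, sh-Il22ra1 minus sh-ctrl, for each numerator gene (rows) over each denominator gene (columns), with red for higher in sh-Il22ra1; asterisks mark an adjusted exact permutation p under 0.05. The Ptprn2 row is red throughout, with 0.92 over Ins1 and a slightly larger value over Scg2, and the Chga and Scg2 rows are mostly blue outside the insulin columns.

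Genes that make, fill and furnish granules also changed in both directions, and their lists were read by counts beside the 51.9% called over all genes. Of the 7 tested enzymes that process granule cargo 3 were higher and 2 lower, with a median log2 fold change of 0.03. Cpd, carboxypeptidase D, rose to 127 ± 8.19 CPM in sh-Il22ra1, against 65.6 ± 10.2 CPM in sh-ctrl (SD, n = 6 each), and Pcsk2 and Ctsl rose by 0.29 and 0.22 on the log2 scale; 26.8% of the exon bases of Ctsl belong to other annotated genes too. Furin, a convertase of the Golgi, fell to 72.0 ± 3.54 CPM in sh-Il22ra1, against 118 ± 14.4 CPM in sh-ctrl, and Pcsk1, the other granule convertase, had a called log2 fold change of -0.26. The small proteins that accompany the convertases, Scg5 (7B2, which escorts Pcsk2) and Pcsk1n (proSAAS), did not pass, with log2 fold changes of -0.13 and 0.03 (edgeR adjusted p of 0.130 and 0.848).

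Of the 21 tested factors of granule budding, sorting and maturation 8 were higher and 7 lower, with a median of -0.06. Ap1m1, the medium subunit of the AP-1 clathrin adaptor that retrieves proteins from immature granules, fell to 33.7 ± 3.33 CPM in sh-Il22ra1, against 102 ± 4.65 CPM in sh-ctrl (SD, n = 6 each), a log2 fold change of -1.61 (edgeR adjusted p = 2.49e-12). Vps52, a subunit of the tethering complexes GARP and EARP, rose by 0.82 on the log2 scale (edgeR adjusted p = 7.50e-10). The other listed subunits of these complexes did not move together. Vps53 had 0.43 and Vps54 had -0.84 (edgeR adjusted p of 9.09e-06 and 6.56e-06). Vps51 had -0.06 and did not pass (edgeR adjusted p = 0.465). Rab2b and Arfip1 had called log2 fold changes of -2.72 and 0.96, but 64.0% and 75.1% of their exon bases belong to other annotated genes too, so the reads behind these values are uncertain.

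Of the 17 tested proteins of the granule membrane 6 were higher and 4 lower, with a median of 0.04. Atp6ap1 and Atp6ap2, accessory subunits of the proton pump that acidifies granules, were higher by 0.43 and 0.30 on the log2 scale (edgeR adjusted p of 2.10e-06 and 0.000124). Cyb561, an electron carrier of granule membranes with 10.3% of its exon bases shared with a predicted gene, and the calcium sensor Syt7 were lower, with log2 fold changes of -0.64 and -0.62 (edgeR adjusted p of 9.75e-08 and 1.60e-05). The remaining called rises were Slc18a1 at 0.52, Cadps at 0.27, Slc30a8 at 0.24 and Dnajc5 at 0.17. The remaining called falls were Tmem163, a zinc transporter, at -0.23 and Sytl4, the Rab27a effector granuphilin, at -0.18.

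Among the 6 hormones and peptides stored in beta-cell granules 4 were lower and none was higher, with a median of -0.39; the count higher was also 0 at an unadjusted p under 0.05, in DESeq2 and in limma-voom, and 1 without sh-ctrl libraries 1 and 4. Iapp, the amyloid peptide released with insulin, fell to 19761 ± 829.8 CPM in sh-Il22ra1, against 30588 ± 3538 CPM in sh-ctrl, and Npy to 305 ± 12.5 CPM in sh-Il22ra1, against 481 ± 73.9 CPM in sh-ctrl (SD, n = 6 each). Nucb2, the precursor of nesfatin-1, had a log2 fold change of -0.42 and Ins1 the value given above.

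Of the 9 genes for proteins that bind or cut IA-2 or stabilise granule messages 1 was higher and 4 were lower, with a median of -0.15. Pias4, of the PIAS family whose members are known to bind the cytosolic fragment of IA-2, rose by 0.82 on the log2 scale (edgeR adjusted p = 1.62e-09). Capn1, a calpain, Ptbp3 and Ptbp2, relatives of the protein that stabilises granule messages in beta cells, and Sntb2, the syntrophin that anchors IA-2 to the cytoskeleton, had called log2 fold changes of -0.68, -0.52, -0.54 and -0.30. Ptbp1, the stabilising protein itself, had -0.04 and did not pass (edgeR adjusted p = 0.587).

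Among the 15 tested transcription regulators known to act on granin and IA-2 promoters 3 were higher and 5 lower, with a median of -0.05. Egr1, an immediate early factor, fell to 26.3 ± 1.25 CPM in sh-Il22ra1, against 59.8 ± 7.17 CPM in sh-ctrl (SD, n = 6 each; log2 fold change -1.18, edgeR adjusted p = 6.79e-10). Of the CREB side, the coactivators Crtc2 and Crtc1 and the CREB relative Crem had called log2 fold changes of -0.86, -0.51 and -0.59. The coactivators Crebbp and Ep300 had -0.20 and -0.05 and did not pass (edgeR adjusted p of 0.249 and 0.814). Creb1 and Atf1 had 0.11 and 0.10 and did not pass either (edgeR adjusted p of 0.368 and 0.179). Sp1, which binds GC boxes, had -0.66 (edgeR adjusted p = 7.45e-06). Jun, Neurod1 and Insm1 were higher by 0.58, 0.37 and 0.19 on the log2 scale. In these lists Pcsk1, Vps51, Vps53, Vps54, Slc18a1, Cadps, Slc30a8, Dnajc5, Tmem163, Sytl4 and Sntb2 were named after their values were seen. So were Ptbp1, Crtc1, Crem, Crebbp, Ep300, Creb1, Atf1, Neurod1 and Insm1.

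**Figure D5:**
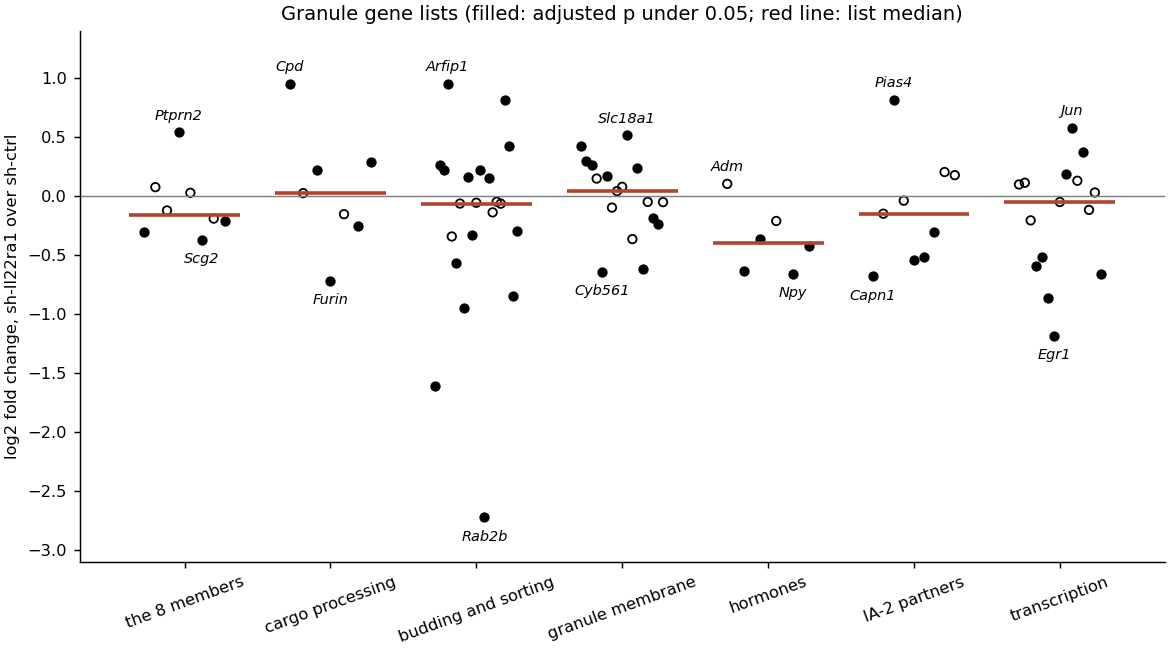
Log2 fold change, sh-Il22ra1 over sh-ctrl (y axis), of the 8 granule genes and of 6 lists of granule and regulator genes (x axis); filled points passed the test, open points did not, red lines are list medians and the genes with the highest and lowest value of each list are named. The hormone list has its median at -0.39 with no filled point above 0, and the other lists spread to both sides of 0.

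Of the nearest protein-coding genes on each side of the members, other than Ptprn and Resp18 themselves, 10 were tested. Both neighbours of Chga, Golga5 and Itpk1, were lower like Chga, with log2 fold changes of -0.47 and -0.24 (edgeR adjusted p of 0.000104 and 0.00506). Vgf had the lowered Plod3 on one side, at -0.31, and the raised Ap1s1 on the other, at 0.26. Ncapg2, next to the raised Ptprn2, was lower, at -0.31 (edgeR adjusted p = 0.0242), and Dnajb2, on the far side of Ptprn from Resp18, was higher, at 0.25 (edgeR adjusted p = 0.00157). Trmt6, Ap1s3, Lysmd2 and Dnpep, next to Chgb, Scg2, Scg3 and Resp18, did not pass, with log2 fold changes between -0.02 and 0.12.

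For each member the 2 genes with the most similar profile were found by the mean absolute difference of log2 CPM, each gene centred on its own mean, over the 12 libraries and among the 10623 genes that averaged 5 CPM or more. The closest were Spag7 and U2af1l4 for Chga (0.0373 and 0.0428), Ppt1 and Nt5c3 for Scg2 (0.0455 and 0.0502), Syt5 and Ciz1 for Vgf (0.0372 for the first and 0.0373 for the second), Acin1 and Bhlhe41 for Chgb (0.0398 each) and Hmgb1 and Gkap1 for Scg3 (0.0413 and 0.0517). Ptprn was nearest to Bysl and Atf6b (0.0253 and 0.0268), Resp18 to Stoml2 and Mapk3 (0.0326 and 0.0355), and Ptprn2 to Adar and Abcc5 (0.0556 and 0.0608). No member was among the nearest 2 of another. Between members the closest pair was Chga and Vgf at 0.0646, and the farthest was Scg2 and Ptprn2 at 0.467. Syt5, a synaptotagmin of dense-core granules, averaged 147 CPM in sh-Il22ra1 and 177 CPM in sh-ctrl, with a called log2 fold change of -0.27. The profiles hold the difference between the groups, so a change like that of Vgf follows from how Syt5 was chosen.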

How the data were processed

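Per the labels' protocols, total RNA (TRIzol) of Min6 cells went into paired-end libraries (VAHTS Universal V6 kit). Per the submitters' processing notes, HISAT2 2.0.5 and HTSeq were used with mm10; which annotation and strand setting went into counting is not given in the sources used here. The deposited files, 1 per library, give read counts as whole numbers by gene symbol (24421 symbols). Reads assigned to no gene stand in rows of their own; they took 23.5% to 26.8% of sh-Il22ra1 files and 26.5% to 31.7% of sh-ctrl files and entered neither library sizes nor tests. Groups and replicate numbers come from the titles; in sh-Il22ra1 replicates 2 to 6 the treatment label numbers the gene upward, and the titles decided the group.

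The test was edgeR 4.0.16 (R 4.3.3): filterByExpr (minimum count 10, minimum total 15), TMM scaling and the quasi-likelihood test, two-sided, with Benjamini-Hochberg adjustment over 13102 genes at 0.05. SEs were derived from the log2 fold change and its F statistic. Log2 CPM has a prior count of 2. Each ratio of members was compared by an exact permutation test over 924 regroupings. Alternatives were RLE and upper-quartile scaling, TMM scaling without Ins2, Iapp, Rn45s and the members, DESeq2 1.42.0, limma-voom (limma 3.58.1), no filter or a filter at a mean of 1 CPM, leaving out each library or sh-ctrl libraries 1 and 4, a replicate block, and offsets from splines on transcript length and GC content (4 degrees of freedom). The scripts were tested on simulated data. Positions, lengths, GC content and exon overlap are from GENCODE M21 on GRCm38, the build that mm10 names, and promoter windows from RefSeq.

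Named were the 8 members, Il22ra1, Cyb5r3, Ins1 and Ins2, up to 4 called genes of smallest p in each list, the 2 genes most like each member and the nearest protein-coding genes; predicted genes were counted, not named. Members, lists and rules were chosen with earlier results of these data known. The list of budding and sorting factors lacks Eipr1, which is not among the counted symbols, and Qpct and Cadps2 of other lists were not tested.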

Additional observations from a re-analysis of the deposited data

Results flagged for a closer look

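Of 126 combinations of a named gene and a group, 8 held 1 library that stood far from the other 5 of its group; chance alone flags about 1 in 20 groups. Among the members this was Chga, with 6429 CPM in sh-ctrl library 4 and 4455 to 4981 CPM in the other sh-ctrl libraries. The same library was apart for Ptbp3 (84.0 CPM, others 111 to 122 CPM), Ptbp2 (10.6 CPM, others 14.2 to 16.0 CPM) and U2af1l4 (46.7 CPM, others 33.6 to 37.95 CPM). In sh-Il22ra1 library 1, Nucb2 had 38.6 CPM with 29.4 to 31.3 CPM in the others, Itpk1 had 43.2 CPM with 51.9 to 55.7 CPM, and Ciz1 had 88.0 CPM with 80.8 to 83.4 CPM. In sh-Il22ra1 library 3, Bhlhe41 had 101 CPM with 89.6 to 92.0 CPM in the others.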

How the results depend on the processing

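Chga, Scg2 and Ptprn2 kept their direction and their call under all 22 alternatives, with log2 fold changes of -0.34 to -0.24, -0.42 to -0.34 and 0.36 to 0.63; Chgb stayed positive and uncalled (0.04 to 0.11). Length and GC offsets gave 0.00080 for Vgf, 0.063 for Ptprn, -0.13 for Resp18 and -0.24 for Scg3, and the cause was not tested. Ptprn passed in DESeq2 (-0.12) and without sh-ctrl libraries 1 and 4 (-0.17). With each library left out in turn, values ran from -0.24 to -0.12 for Scg3, from -0.15 to -0.094 for Ptprn and from -0.0021 to 0.066 for Resp18. Ratios passing then numbered 7 to 13 higher and 11 to 15 lower, with 7 higher without sh-Il22ra1 library 3, 5 or 6; without sh-ctrl libraries 1 and 4 together 7 were higher.

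Whether the replicate numbers pair the libraries was not settled. Same-numbered libraries had correlated deviations of -0.03 to 0.23, and 2 of 6, replicates 1 and 4, matched their own number best. With the replicate block Scg3 passed at -0.18 (edgeR adjusted p = 0.0348) and 4 members were lower. Among ratios, 0 were higher and 0 lower with the block. There 6 pairs allow no exact p below 0.0313, and too few ratios reached it to pass after adjustment (adjusted exact p of 0.0764). Among list counts, transcription regulators moved most, to 8 lower without sh-ctrl libraries 1 and 4 and 6 higher with length and GC offsets. Transcript length and GC were known for 99.5% of tested genes. Counting error is small here, with at least 2804 reads per member and library.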
